A study of Mus musculus with 16 samples.

Results

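The sciatic nerve of WldS mice was studied 3 days after a crush, set against uninjured WldS nerve. WldS stands for C57BL/6 OlaHsd-Wlds, a mouse strain whose severed axons survive far longer than those of other mice. The comparison uses 4 of the 16 arrays of the study, 2 arrays of WldS nerve at day 3 and 2 of uninjured WldS nerve (day 0), and covers all 14545 genes that passed a filter on dim signals, out of 18193 with a probe set of their own. C57BL/6 nerves, wild type per the labels, were handled the same way at the same days and give the 2 arrays at day 3 and the 2 uninjured arrays against which the WldS change is set. All mice were 8 to 12 weeks old. In the day 3 groups the left sciatic nerve received a microcrush at mid-thigh, and the piece measured was 4 mm of distal stump, reaching from 1 mm to 5 mm beyond the lesion; uninjured groups gave a 4 mm piece of nerve. RNA was extracted from pools of stumps. The labels call the 2 arrays of a group biological replicates without saying how many mice stood behind each pool, so n = 2 pools per group, and every p-value measures the spread between pools rather than between mice. Levels are log2 probe set signals on the Affymetrix Mouse Genome 430 2.0 array, on which a difference of 1 is a 2-fold change. A gene was called at a limma adjusted p below 0.05, and values after ± are standard errors of a difference. The spread behind both was pooled over all 16 arrays in a single fit, so it is not that of the 4 arrays alone.

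When an axon is cut, the part beyond the lesion breaks down in Wallerian degeneration. Schwann cells then drop their myelin programme, divide and take on a repair state in which they secrete trophic factors, while blood monocytes enter the nerve and become macrophages that clear debris. The WldS fusion protein joins the start of Ube4b to Nmnat1, an enzyme of NAD synthesis, and it holds back the axon-destroying activity of SARM1. In WldS nerve the axons beyond a crush therefore remain for days after those of wild-type nerve have broken up. Every cell of the mouse carries the WldS gene, so the model does not restrict it to neurons.

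Nmnat1, which marks the fusion gene, read 8.71 and 8.87 at day 3, against 9.35 and 9.02 in uninjured WldS nerve, and its difference of -0.40 did not pass (adjusted p = 0.0629). Without WldS uninjured replicate 2 it was called, at -0.56. The C57BL/6 arrays read 6.27 and 5.94 in C57BL/6 at day 3, against 6.01 and 6.34 in uninjured C57BL/6, below every WldS array. Uninjured WldS nerve was the least even group of the comparison, with a median standard deviation between its pools of 0.145, against 0.071 at WldS day 3. The 3'/5' index of the Actb and Gapdh control probe sets, a log2 difference that grows as RNA breaks down, was 1.68 and 1.94 at WldS day 3, against 3.81 and 2.46 in uninjured WldS nerve. Skeletal muscle genes, markers of tissue lying beside the nerve, averaged 6.07 and 6.02 at day 3, against 6.47 and 7.19 in uninjured WldS nerve over their 8 tested members, of which 5 were called lower (3 without WldS uninjured replicate 2 or WldS day 3 replicate 1 or WldS day 3 replicate 2). Ttn, the giant elastic protein of the sarcomere, had a change of -2.15 (-1.30 without WldS uninjured replicate 2), with a day 3 mean under the dim filter, while Mb, the oxygen store of muscle, had one of -0.13 on the probe set tested, which was not called, and of -2.03 on another. With the index as a covariate 3465 genes were called in place of 5236. The part of muscle tissue in the changes below was not tested.

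At day 3 the WldS nerve had changed in 5236 of 14545 genes (36.0%), with 3031 higher (20.8%) and 2205 lower (15.2%) than in uninjured WldS nerve. These shares of higher and lower genes are those against which the list counts below are to be read. A change of at least 2-fold was reached by 1437 of them, 1054 higher and 383 lower. Without WldS day 3 replicate 1 the total was 3316, of which 1207 were lower. Slfn4, a Schlafen family gene of myeloid cells, read 12.60 and 11.55 at day 3, against 6.03 and 5.97 in uninjured WldS nerve, a rise of 6.08 ± 0.30 (adjusted p = 5.87e-09). Ms4a4c, a tetraspan membrane protein gene of monocytes, read 12.03 and 11.40 at day 3, against 6.81 and 5.86 in uninjured WldS nerve, a rise of 5.38 ± 0.26 (adjusted p = 4.96e-09). Both genes stood far apart in the day 3 and uninjured pools, and the day 3 pools differed from each other by much less than from the uninjured ones. Chil3, a chitinase-like secreted protein of macrophages, rose by at least 5.21, Arg1, which splits arginine into ornithine and urea, by at least 5.04, and Clec4d, a myeloid lectin receptor, by at least 4.44. A rise is given as at least a value where the uninjured mean lay below log2 5.37, the level of the dim filter. That level is the 30th percentile of probe set means and not a measured detection limit, so the bound is a convention. Cthrc1, a collagen triple helix protein secreted by activated fibroblasts, read 12.22 and 12.22 at day 3, against 6.90 and 7.55 in uninjured WldS nerve, a rise of 5.00 ± 0.18 (adjusted p = 4.02e-10). The remaining places among the 10 largest rises went to Slfn1 (4.70), Fcgr1 (4.21), Rrm2 (4.21) and Mki67 (4.17). In bulk nerve, more cells of a type cannot be told apart from more RNA per cell, nor fewer cells from less RNA per cell, and this holds for every cell type list below.

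Inmt, an amine methyltransferase of resting fibroblasts, had the largest fall and read 7.80 and 8.16 at day 3, against 11.56 and 12.17 in uninjured WldS nerve, a change of -3.88 ± 0.27 (adjusted p = 1.02e-07). Pon1, a lactone-splitting esterase, changed by -2.75, Mt3, a metallothionein, by -2.65, and Ces1d, a carboxylesterase, by -2.45. Cldn22, a claudin, read 8.99 and 9.02 at day 3, against 11.55 and 11.54 in uninjured WldS nerve, a change of -2.54 ± 0.11 (adjusted p = 2.09e-09). The other 5 of the 10 were Hsd17b7 (-2.69), Acss2 (-2.66), Idi1 (-2.56), Insig1 (-2.55) and Lss (-2.43), of which Acss2 makes acetyl-CoA, Insig1 restrains sterol synthesis and the others are enzymes of it. None of these 20 genes had overlapping arrays, because the rule that named them asked for that.

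**Figure D1:**
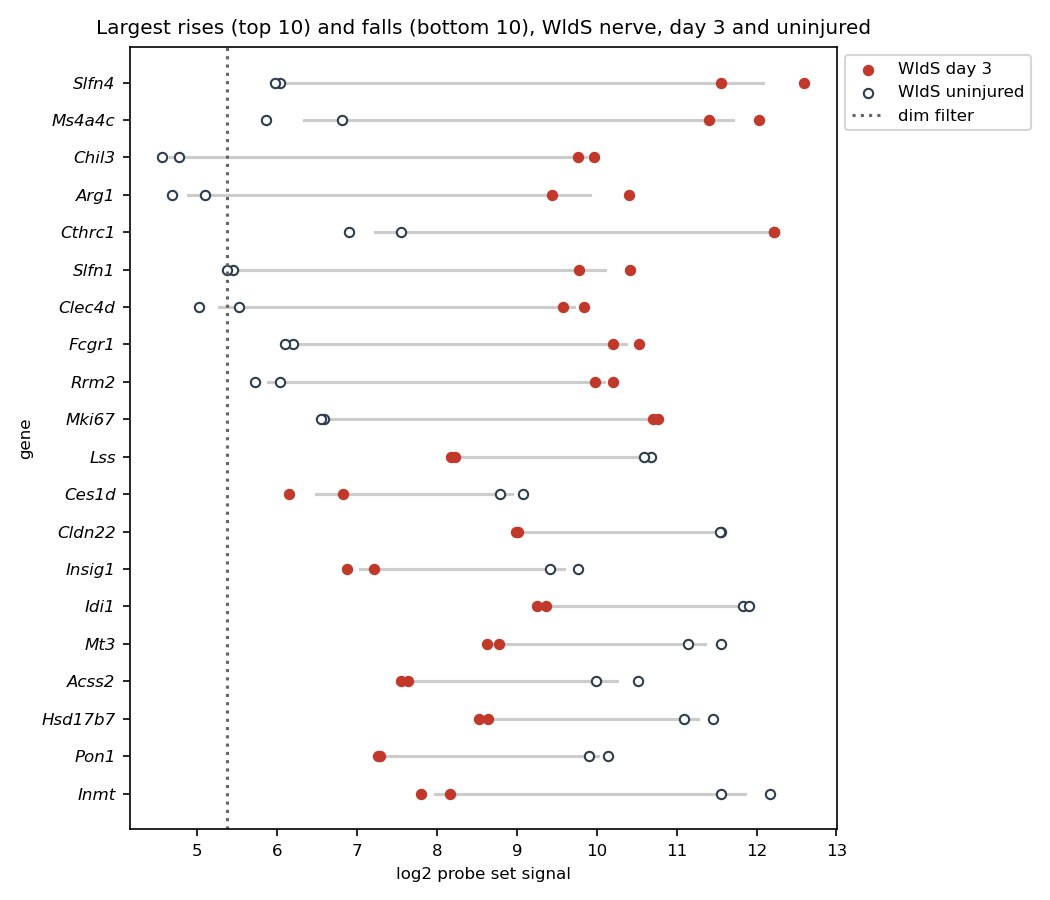
Log2 signal of each array for the 10 genes that rose most and the 10 that fell most in WldS nerve; filled points are WldS day 3, open points uninjured WldS, the grey line joins the group means and the dotted line is the dim filter. The uninjured pools of Chil3, Arg1 and Clec4d lie at or near the filter, and no day 3 point reaches an uninjured point.

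Genes of the interferon response formed one of the broadest rises. Type I interferon acts through its receptor and JAK kinases on a factor complex that includes STAT2 and IRF9 and binds the interferon-stimulated response element in the promoters of antiviral genes. Of the 23 antiviral interferon-stimulated genes tested, 20 were higher in WldS nerve at day 3 and 0 lower, against 20.8% and 15.2% of all genes, and their median difference was 1.87 against -0.02 over all genes tested. The list averaged 10.54 and 10.26 at day 3, against 8.89 and 8.58 in uninjured WldS nerve. Mx1, a GTPase that traps viral ribonucleoproteins, read 8.75 and 8.33 at day 3, against 5.43 and 5.24 in uninjured WldS nerve, a rise of at least 3.20 ± 0.15 (adjusted p = 3.73e-09). Oas1a makes the 2'-5' oligoadenylates that switch on RNase L, and it read 11.38 and 10.91 at day 3, against 8.51 and 7.67 in uninjured WldS nerve, a rise of 3.05 ± 0.23 (adjusted p = 1.76e-07). Its relatives Oasl2, Oas3 and Oasl1 rose by 2.62, 2.29 and 2.29. Genes of this list named from here on, other than Bst2, were picked after their values were seen. Rsad2, the radical-SAM enzyme viperin, rose by 2.23, and Bst2, which tethers budding virus to the cell, by 1.98. Ifit1, which holds back viral RNA lacking a cap methyl group, read 10.34 and 10.33 at day 3, against 8.77 and 7.95 in uninjured WldS nerve, a rise of 1.97 ± 0.27 (adjusted p = 5.78e-05). Ifit3, its partner, read 11.22 and 11.08 at day 3, against 9.92 and 9.61 in uninjured WldS nerve, a rise of 1.39 ± 0.26 (adjusted p = 0.000741).

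Promoter windows of 250 bases before to 50 bases after the gene start were at hand for 15 of the antiviral genes, from RefSeq on GRCm38.p6. The response element was searched as GAAA, then NN (any bases), then GAAA without a gap, on both strands, and 8 of the 15 windows (53.3%) held it, against 3.99% of the genes with a window. Among the 11635 tested genes with a window, 420 held the element and 136 of these (32.4%) were higher in WldS nerve at day 3, against 21.0% of the 11635. A match describes letters only. The 180 bases before the gene start are shown for 4 of the genes, each with a pair of matches in capitals. These are not the 4 genes of the list that rose most.
Ifit1 (chr19:34640709-34640888, plus strand): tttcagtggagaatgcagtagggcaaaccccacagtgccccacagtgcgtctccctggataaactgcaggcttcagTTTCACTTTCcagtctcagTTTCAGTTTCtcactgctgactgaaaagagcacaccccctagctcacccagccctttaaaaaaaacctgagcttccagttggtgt
Ifit3 (chr19:34583349-34583528, plus strand): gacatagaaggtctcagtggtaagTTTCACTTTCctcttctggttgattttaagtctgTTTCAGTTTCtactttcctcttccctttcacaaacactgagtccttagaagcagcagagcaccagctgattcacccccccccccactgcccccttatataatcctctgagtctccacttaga
Bst2 (chr8:71537473-71537652, minus strand): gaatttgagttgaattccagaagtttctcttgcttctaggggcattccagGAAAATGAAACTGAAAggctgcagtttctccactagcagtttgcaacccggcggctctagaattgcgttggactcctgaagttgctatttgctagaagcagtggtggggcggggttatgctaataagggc
Oas1a (chr5:120907526-120907705, minus strand): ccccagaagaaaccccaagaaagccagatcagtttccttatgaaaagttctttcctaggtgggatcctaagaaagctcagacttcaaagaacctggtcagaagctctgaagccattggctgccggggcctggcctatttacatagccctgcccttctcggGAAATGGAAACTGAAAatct
The matches of Bst2 and of Oas1a overlap and run into one another, while those of Ifit1 and Ifit3 are separate and lie on the other strand.

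The signalling genes above these targets moved less. Of 16 interferon ligands, receptors and signalling genes tested, 11 were higher and 0 lower, with a median of 0.67. Irf7, the factor that amplifies type I interferon, read 10.77 and 10.30 at day 3, against 7.40 and 7.47 in uninjured WldS nerve, a rise of 3.10 ± 0.19 (adjusted p = 3.74e-08). Irf8, a factor of monocyte development, rose by 2.94, and Jak1, a receptor kinase, by 1.96 (1.29 without WldS uninjured replicate 1). Stat2 rose by 1.22 and Irf9, its partner, by 1.19. The receptor chain Ifnar1 rose by 0.72 and Ifnar2 by 0.62, the second not called without WldS uninjured replicate 1 (0.49) or WldS day 3 replicate 1 (0.52). The ligand gene Ifnb1 was not called, at 5.79 and 5.87 at day 3, against 6.04 and 6.10 in uninjured WldS nerve, and Ifng lay below the dim filter. Among 13 tested sensors of nucleic acid and their adaptors, 10 rose and 0 fell. Ifi204, a DNA sensor of myeloid cells, rose by 2.44, Ddx58, which encodes the RNA sensor RIG-I, by 1.74, Ifih1, the RNA sensor MDA5, by 1.71, Sting1, the adaptor of the DNA pathway, by 1.48 and Cgas, the enzyme upstream of it, by 1.12. Mavs, the mitochondrial adaptor of the RNA pathway, had a difference of 0.14 and was not called.

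Genes that interferon-gamma also induces rose almost as a body. Of 18 interferon-inducible GTPases and class I antigen presentation genes, 17 were higher and 0 lower, with a median of 1.37. Irgm1, a GTPase that acts on vacuoles of intracellular microbes, read 10.36 and 10.17 at day 3, against 8.29 and 8.15 in uninjured WldS nerve, a rise of 2.04 ± 0.15 (adjusted p = 1.68e-07). Tap1, a chain of the transporter that moves peptides to class I molecules, read 9.89 and 9.38 at day 3, against 7.57 and 7.72 in uninjured WldS nerve, a rise of 1.99 ± 0.16 (adjusted p = 5.46e-07). H2-D1, a class I heavy chain, read 13.17 and 12.86 at day 3, against 10.90 and 11.57 in uninjured WldS nerve, a rise of 1.79 ± 0.21 (adjusted p = 1.71e-05), and its light chain B2m rose by 0.95 (0.62 without WldS uninjured replicate 1). Nlrc5, the activator of class I genes, rose by 2.05, and the immunoproteasome subunits Psmb9 and Psmb8 by 1.85 and 1.72. Class I genes of this locus resemble each other closely, so the H2-D1 and H2-K1 (1.62) probe sets may share signal.

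**Figure D2:**
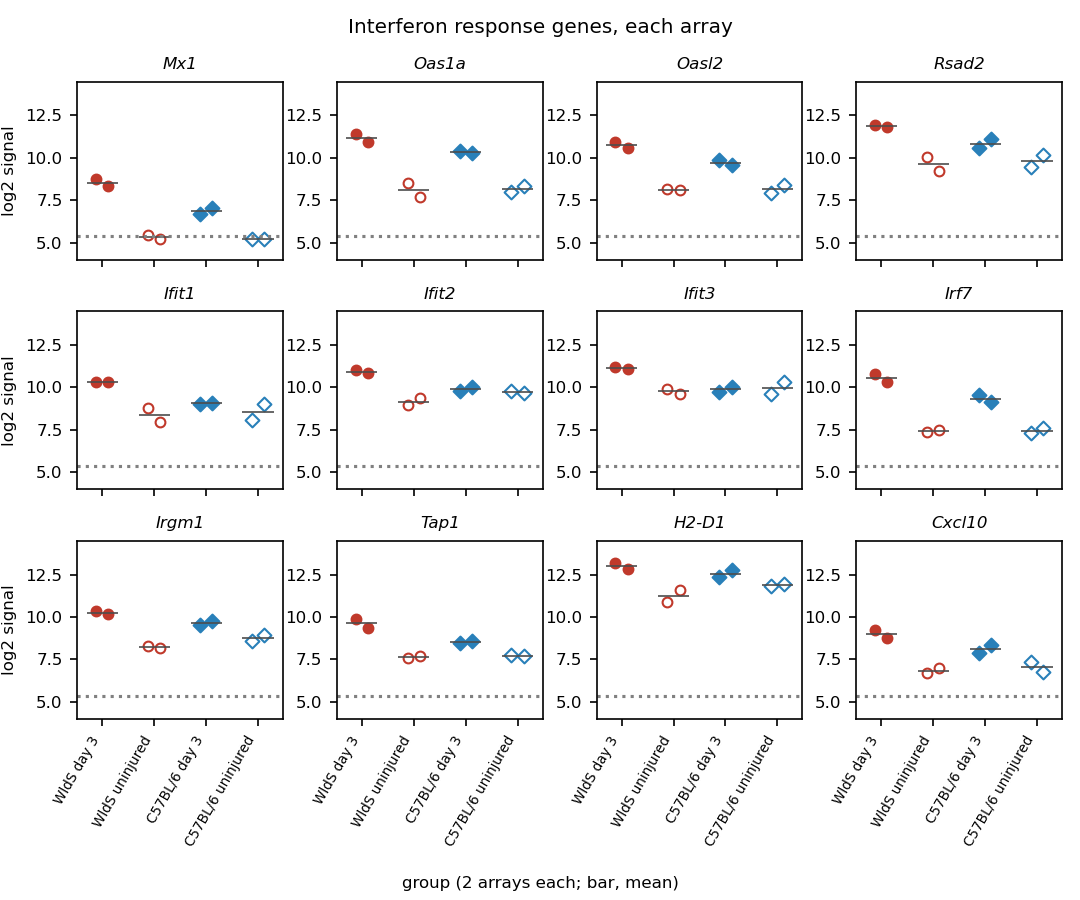
Log2 signal of each array for 12 interferon response genes in WldS day 3, WldS uninjured, C57BL/6 day 3 and C57BL/6 uninjured nerve, left to right in each panel; bars are group means and the dotted line is the dim filter. In all 12 panels the WldS day 3 points lie above the WldS uninjured points.

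The WldS rise was larger than the C57BL/6 rise in part of these genes. The test of that difference is the interaction, the WldS change minus the C57BL/6 change, which was called in 896 of all genes tested (6.16%), 584 positive (4.02%) and 312 negative (2.15%). In C57BL/6 itself 5961 genes (41.0%) were called. Of the 23 antiviral genes 7 had a positive interaction and 0 a negative one, and the median change was 1.87 in WldS and 0.88 in C57BL/6. Leaving out one array at a time, the number of positive interactions ran up to 10, a count of 3 without C57BL/6 uninjured replicate 2 or WldS day 3 replicate 1 but 4 without C57BL/6 day 3 replicate 2. Those of Mx1 (1.51 ± 0.21 (adjusted p = 0.000584), with both uninjured means under the dim filter), Ifit2 (1.61 ± 0.21 (adjusted p = 0.000309)) and Samd9l (1.11 ± 0.18 (adjusted p = 0.00186)) were called each time. Ifit2 changed by 1.78 in WldS and 0.17 in C57BL/6, where it was not called. Ifit3 had an interaction of 1.47 and Ifit1 of 1.47, and these were not called without 4 and 6 of the 8 arrays, among them both WldS day 3 arrays (values from 1.12 to 1.81 and from 1.00 to 1.94). Of the GTPases and class I genes 7 of 18 had a positive interaction, a count of 2 without C57BL/6 uninjured replicate 2 or WldS day 3 replicate 1 but 3 without C57BL/6 day 3 replicate 1, and Irgm1 (1.13) and Tap1 (1.16) were called each time.

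The Schlafen and Ms4a families, gene clusters used by myeloid cells and lymphocytes, had the highest list median, 3.09, with 13 of 14 members higher. The list averaged 10.51 and 10.12 at day 3, against 7.45 and 7.14 in uninjured WldS nerve. Ms4a6d rose by 3.77, Ms4a4b by at least 3.47 and Ms4a7 by 2.90. Members of a cluster resemble each other in sequence, so some of their signal may be shared. Slfn5, whose change was smaller (1.25 in WldS and 0.39 in C57BL/6), had the one interaction in these families that held with any array left out, 0.86 ± 0.13 (adjusted p = 0.00141).

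Monocyte genes rose without exception, 10 of 10, with a median of 2.49. Ccr2, the receptor that draws monocytes out of the blood, read 11.09 and 10.98 at day 3, against 7.56 and 7.64 in uninjured WldS nerve, a rise of 3.44 ± 0.18 (adjusted p = 1.04e-08). Itgam, the integrin chain CD11b, read 8.49 and 7.93 at day 3, against 4.92 and 5.03 in uninjured WldS nerve, a rise of at least 3.23 ± 0.19 (adjusted p = 3.49e-08). Cd44, a hyaluronan receptor, rose by 3.48, Plac8 by 2.56 and Lyz2, a lysozyme, by 2.50. C57BL/6 nerve changed by 2.96 in Ccr2 and at least 3.24 in Itgam, and 0 of the 10 genes had a called interaction.

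Of the tissue macrophage genes 15 of 18 rose and 0 fell. Cd68, a late endosome protein, read 11.87 and 11.69 at day 3, against 8.12 and 8.87 in uninjured WldS nerve, a rise of 3.29 ± 0.24 (adjusted p = 1.76e-07). Adgre1, an adhesion receptor widely used as a macrophage marker, rose by 2.28, Aif1, the actin-bundling protein IBA1, by 2.71, and Csf1r, the receptor for the macrophage growth factor, by 0.69 on its brightest probe set and by 1.46 and 1.77 on 2 others, which were not tested. The 3 members not called, Lyve1 (-0.22), Cd163 (0.04) and Timd4 (-0.05), are markers of resident macrophages, as are Folr2 and F13a1, which rose by 1.44 and 1.5. Alternatively activated macrophage genes were split, 5 of 11 higher and 2 lower, against 20.8% and 15.2% of all genes. Fewer were lower without WldS uninjured replicate 2 or WldS day 3 replicate 1. Besides Chil3 and Arg1, Mrc1, the mannose receptor, rose by 2.06, whereas Retnla, a resistin-like secreted protein, changed by -0.88. Among lipid-handling genes 11 of 14 rose, with Lgals3, a galectin, at 2.30, Abca1, which exports cholesterol, at 1.92, and Apoe, which carries it, at 1.38. Lgals3 rose less than in C57BL/6 (3.40), with an interaction of -1.10 that was not called without WldS day 3 replicate 2 (-1.06), C57BL/6 day 3 replicate 1 (-1.02) or C57BL/6 uninjured replicate 1 (-1.04).

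Receptors by which phagocytes see their targets rose in the same nerves. All 5 Fc receptor genes tested were higher. Fcgr1, the high-affinity IgG receptor, read 10.53 and 10.20 at day 3, against 6.20 and 6.10 in uninjured WldS nerve, a rise of 4.21 ± 0.20 (adjusted p = 4.22e-09). Fcgr2b, the inhibitory one, rose by 2.78 and Fcer1g, the shared gamma chain, by 2.49. Toll-like receptors, their co-receptors and adaptors were higher in 13 of 17 and lower in 0. Tlr1, which pairs with TLR2 on lipoproteins, rose by 3.48, Tlr13, a sensor of bacterial ribosomal RNA, by 2.54, Tlr7, a sensor of single-stranded RNA, by 1.91 and Myd88, the common adaptor, by 1.67. Tlr9 (0.02), Tlr8 (-0.01) and Tlr5 (0.21) were not called. Phagocytic receptors and bridging molecules rose in 8 of 15, a count of 5 without WldS uninjured replicate 1 or WldS day 3 replicate 1, and fell in 1 (2 without WldS uninjured replicate 1). Clec7a, the beta-glucan receptor dectin-1, rose by 2.63 and Axl, a receptor for phosphatidylserine through Gas6, by 1.62. Megf10, an engulfment receptor, was the one that fell, at 6.41 and 6.80 at day 3, against 7.89 and 7.50 in uninjured WldS nerve.

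Soluble signals of inflammation rose unevenly. Of 20 chemokine ligands 16 were higher and 1 lower, with a median of 1.76. Ccl2, the ligand of Ccr2, read 10.26 and 9.96 at day 3, against 7.09 and 7.34 in uninjured WldS nerve, a rise of 2.90 ± 0.18 (adjusted p = 4.77e-08). Ccl8 rose by 3.79, and Cxcl2, which attracts neutrophils, by at least 3.52. Cxcl13, the B cell chemokine, was the one that fell, with a change of -1.83. Among interleukin-1, TNF and inflammasome genes 11 of 16 rose and 0 fell. Il1b rose by 1.17, its receptor Il1r1 by 1.60 and the processing enzyme Casp1 by 1.45, while Tnf was at 0.19 and Nlrp3 at -0.14, neither called. Of 15 complement genes 9 rose and 2 fell (1 without WldS day 3 replicate 2). C3ar1, the receptor for the C3a fragment, read 11.70 and 11.62 at day 3, against 7.78 and 8.18 in uninjured WldS nerve, a rise of 3.68 ± 0.20 (adjusted p = 1.64e-08). C1qa and C1qc, chains of the starter molecule, rose by 2.13 and 1.75, and C2 changed by -0.95. Cd59a, which blocks the membrane attack complex, was at -0.14 in WldS and -1.29 in C57BL/6, an interaction of 1.15 ± 0.18 (adjusted p = 0.00113).

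Antigen presentation and digestion genes followed. MHC class II genes were higher in 6 of 7, led by Ctss, the protease that trims the invariant chain (2.57), and by Cd74, the invariant chain itself (1.58). H2-Ab1, a class II beta chain, read 12.54 and 12.39 at day 3, against 10.97 and 11.12 in uninjured WldS nerve. H2-DMa, the peptide loader, was at -0.27 and not called. Lysosomal genes were higher in 15 of 19 and lower in 0. Lgmn, an asparagine-specific protease, read 11.38 and 11.24 at day 3, against 7.18 and 7.98 in uninjured WldS nerve, a rise of 3.73 ± 0.24 (adjusted p = 5.54e-08). Gla, the alpha-galactosidase, rose by at least 2.65 and Gusb, the beta-glucuronidase, by 2.37.

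Of 13 neutrophil markers 5 rose, against 20.8% of all genes, led by S100a8 (at least 2.68) and S100a9 (2.49), which monocytes express too. Padi4, which citrullinates histones, rose by at least 1.71, Csf3r, the receptor for the granulocyte growth factor, by 1.45 and Lcn2, a granule protein, by 0.62, the last not called without WldS uninjured replicate 1 (0.30) or WldS day 3 replicate 1 (0.43) and at 0.94 without WldS uninjured replicate 2. The granule genes Elane (-0.14), Mpo (-0.25), Ltf (-0.13), Camp (-0.03), Ngp (-0.08), Mmp8 (0.17) and Mmp9 (0.25) and the chemokine receptor Cxcr2 (-0.14) were not called. The list averaged 6.60 and 6.63 at day 3, against 5.98 and 5.92 in uninjured WldS nerve. Of 10 T and NK cell markers 4 rose, against 20.8% of all genes, with fewer without WldS day 3 replicate 1. Gzma, a granzyme of killer cells, read 9.26 and 8.19 at day 3, against 6.76 and 6.70 in uninjured WldS nerve, a rise of 2.00 ± 0.25 (adjusted p = 2.83e-05), and Klrk1, the receptor NKG2D, rose by 0.74. The T cell receptor chains Cd3e (-0.06) and Cd3d (0.20) and the co-receptors Cd4 (0.17) and Cd8a (-0.18) did not pass. Among 8 B cell and plasma cell markers 2 rose, near the 20.8% of all genes, a count of 0 without WldS uninjured replicate 1 or WldS day 3 replicate 2 but 1 without WldS day 3 replicate 1, and Ms4a1, the CD20 antigen, was at -0.10. Of 8 mast cell markers 1 fell and 0 rose, the lower count being 0 without WldS uninjured replicate 2 or WldS day 3 replicate 1 or WldS day 3 replicate 2 but 2 without WldS uninjured replicate 1. A fall in 1 of 8 is near the 15.2% of all genes called lower. Cpa3, the mast cell carboxypeptidase, read 9.73 and 9.39 at day 3, against 8.98 and 9.81 in uninjured WldS nerve, and the WldS difference was not called (0.17), with -1.32 in C57BL/6 and an interaction that did not pass (1.49). Melanocyte and erythroid genes, with 6 and 2 members tested, had no called member.

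The WldS nerve at day 3 carried a strong cell division signature. In the S phase the MCM helicase opens DNA and ribonucleotide reductase supplies its building blocks, and in mitosis the cyclin B kinase and the spindle machinery part the chromosomes. Of 27 mitosis and spindle genes 26 were higher and 0 lower, with a median of 2.20. The list averaged 8.45 and 8.52 at day 3, against 6.27 and 6.08 in uninjured WldS nerve. Mki67, the proliferation antigen, read 10.70 and 10.77 at day 3, against 6.58 and 6.55 in uninjured WldS nerve, a rise of 4.17 ± 0.17 (adjusted p = 9.7e-10). Top2a, which untangles chromosomes, read 9.45 and 9.49 at day 3, against 5.42 and 5.33 in uninjured WldS nerve, a rise of 4.09 ± 0.12 (adjusted p = 1.22e-10). Cdk1, the mitotic kinase, read 9.36 and 9.38 at day 3, against 5.90 and 6.06 in uninjured WldS nerve, a rise of 3.39 ± 0.19 (adjusted p = 1.87e-08). All 3 genes stood well apart from their uninjured pools. Birc5, the passenger protein survivin, and Cenpf, a kinetochore protein, rose, Birc5 by at least 3.50 and Cenpf by 3.40. Of 25 DNA replication genes 22 rose and 0 fell. Rrm2, a subunit of ribonucleotide reductase, read 9.98 and 10.20 at day 3, against 6.04 and 5.72 in uninjured WldS nerve, and the helicase subunit Mcm6 rose by 2.91. Which cells divided cannot be read from bulk nerve.

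The promoters of mitotic genes often carry the cell cycle genes homology region, bound by the MuvB complex, which was searched here as TTTGAA on both strands. It was found in 17 of 22 windows of the mitosis list (77.3%), against 20.2% of the genes with a window. The 120 bases before the gene start of 3 genes with among the largest rises are shown, with matches in capitals.
Cdk1 (chr10:69352913-69353032, minus strand): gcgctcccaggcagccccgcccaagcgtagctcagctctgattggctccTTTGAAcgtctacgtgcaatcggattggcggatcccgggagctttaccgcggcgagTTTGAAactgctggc
Mki67 (chr7:135716380-135716499, minus strand): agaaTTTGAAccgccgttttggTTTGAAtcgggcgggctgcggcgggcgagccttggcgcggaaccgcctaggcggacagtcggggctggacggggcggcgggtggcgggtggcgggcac
Top2a (chr11:99024190-99024309, minus strand): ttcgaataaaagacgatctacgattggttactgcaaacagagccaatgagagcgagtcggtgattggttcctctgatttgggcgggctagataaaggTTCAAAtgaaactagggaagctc
A string this short is common, and of the 1709 tested genes that held it 23.6% were higher in WldS nerve, against 21.0% of all tested genes with a window.

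WldS nerve had the smaller median change in mitosis genes, 2.20 against 2.96 in C57BL/6. The interaction was negative in 9 of the 27 genes, a count of 1 without WldS day 3 replicate 1 or WldS day 3 replicate 2, 2 without C57BL/6 uninjured replicate 1 or C57BL/6 day 3 replicate 2 or WldS uninjured replicate 1, 3 without C57BL/6 day 3 replicate 1, 4 without C57BL/6 uninjured replicate 2, 14 without WldS uninjured replicate 2. Ttk, a spindle checkpoint kinase picked after its values were seen, was called each time (-1.15 ± 0.16 (adjusted p = 0.000596)). The list of D cyclins and Cdk inhibitors was split, 5 of 12 higher and 3 lower, against 20.8% and 15.2% of all genes. Among the brakes of the cycle, Cdkn1b stood at -0.52 and Cdkn2c at 0.43, with Cdkn2a, Cdkn2b and Cdkn2d between them. Cdkn1c, the inhibitor p57, read 9.96 and 9.88 at day 3, against 10.66 and 10.66 in uninjured WldS nerve, a change of -0.74 ± 0.11 (adjusted p = 0.000155), and Cdkn1a, the inhibitor p21, changed by -0.57. In C57BL/6 the changes were -2.31 and -1.65, with interactions of 1.57 and 1.08. Ccnd1, a D cyclin, rose by 0.72, and its kinases Cdk4 and Cdk6 by 1.10 and 1.09.

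Cholesterol synthesis fell almost as a block. Myelin is rich in cholesterol that Schwann cells make themselves under the control of SREBP, which INSIG1 holds in check. Of 20 cholesterol synthesis and uptake genes 17 were lower and 0 higher, with a median of -1.75, and the count of lower genes stayed at 17 with any one array left out. The list averaged 8.44 and 8.48 at day 3, against 10.04 and 10.22 in uninjured WldS nerve. Hsd17b7, a sterol ketone reductase, read 8.52 and 8.64 at day 3, against 11.45 and 11.09 in uninjured WldS nerve, a change of -2.69 ± 0.17 (adjusted p = 4.37e-08). Idi1, an isopentenyl diphosphate isomerase, read 9.37 and 9.25 at day 3, against 11.83 and 11.91 in uninjured WldS nerve, a change of -2.56 ± 0.17 (adjusted p = 8.19e-08). Insig1 itself changed by -2.55, Lss, which closes the sterol rings, by -2.43 and Cyp51, a lanosterol demethylase, by -2.34. The C57BL/6 median was -1.95, and 1 interaction of the 20 was called, a negative one. With one array left out there were from 0 to 1 negative and from 0 to 2 positive ones. The sterol regulatory element, searched as TCACNCCAC on both strands, was found in 1 of 16 windows (6.25%), against 1.44% of the genes with a window. A single window is too few to set against that share. Of the 169 tested genes that held the element 17.2% were lower in WldS nerve, against 15.2% of all tested genes with a window. The 1 window was that of Hmgcs1, the synthase that makes HMG-CoA. Its stretch from 180 to 61 bases before the gene start is shown with the match in capitals. Hmgcs1, picked after its values were seen, changed by -1.62.
Hmgcs1 (chr13:119690171-119690290, plus strand): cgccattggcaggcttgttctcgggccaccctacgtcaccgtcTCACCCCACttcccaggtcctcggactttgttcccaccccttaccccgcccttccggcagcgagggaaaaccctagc

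Myelin genes fell modestly in WldS nerve. Of 17 myelin protein genes 13 were lower and 0 higher, with a median of -0.67, and the list averaged 10.26 and 10.35 at day 3, against 10.89 and 11.15 in uninjured WldS nerve. Ncmap, a myelin membrane protein of Schwann cells, read 11.56 and 11.45 at day 3, against 12.23 and 12.78 in uninjured WldS nerve, a change of -1.0 ± 0.20 (adjusted p = 0.00123). Cmtm5 changed by -1.25, Gjc3, a connexin, by -1.45, and Nfasc, the node and paranode adhesion protein, by -1.37. Mbp and Pmp22, structural proteins of compact myelin picked after their values were seen, changed by -0.51 and -0.14, the second not called. Enzymes of myelin lipids were lower in 13 of 20 and higher in 0. Elovl6, a fatty acid elongase, changed by -1.84, Fasn, the fatty acid synthase, by -1.25, Fa2h, which makes 2-hydroxy fatty acids, by -1.10, and Ugt8a, the galactosylceramide synthase, by -0.97.

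Part of the myelin protein genes fell less in WldS than in C57BL/6. There the myelin protein median was -1.72, with an average of 9.39 and 9.36 in C57BL/6 at day 3, against 11.08 and 11.07 in uninjured C57BL/6, and 10 of 17 genes had a positive interaction, from 8 to 10 with one array left out. Ncmap read 6.93 and 6.88 in C57BL/6 at day 3, against 12.70 and 12.56 in uninjured C57BL/6, and its interaction of 4.72 ± 0.28 (adjusted p = 1.78e-07) was the largest positive one of the named genes. The myelin lipid enzymes had medians of -0.90 in WldS and -0.86 in C57BL/6, but their averages fell further in C57BL/6. They were 10.32 and 10.27 at WldS day 3, against 10.94 and 11.13 in uninjured WldS nerve. In C57BL/6 they were 9.72 and 9.79 at day 3, against 11.19 and 11.14 in uninjured nerve. The median interaction of the list was 0.56, and 4 of 20 had a positive interaction and 0 a negative one. The positive count was 2 without C57BL/6 uninjured replicate 1 or WldS day 3 replicate 1 but 9 without WldS uninjured replicate 2, and the negative count 1 without WldS uninjured replicate 1. Fa2h, one of them, read 7.29 and 7.40 in C57BL/6 at day 3, against 12.38 and 12.21 in uninjured C57BL/6, an interaction of 3.85 ± 0.15 (adjusted p = 7.08e-09). Mbp (1.22), Pmp22 (1.82) and Cmtm5 (2.96) were called with any array left out. Cadm1, an adhesion molecule of the internode, went the other way, with -1.28 in WldS, 0.33 in C57BL/6 and an interaction of -1.61. Ddn and Fam107a, which are not myelin genes by these lists, changed by -2.41 and -1.01 in WldS and by -5.97 and -5.58 in C57BL/6.

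**Figure D3:**
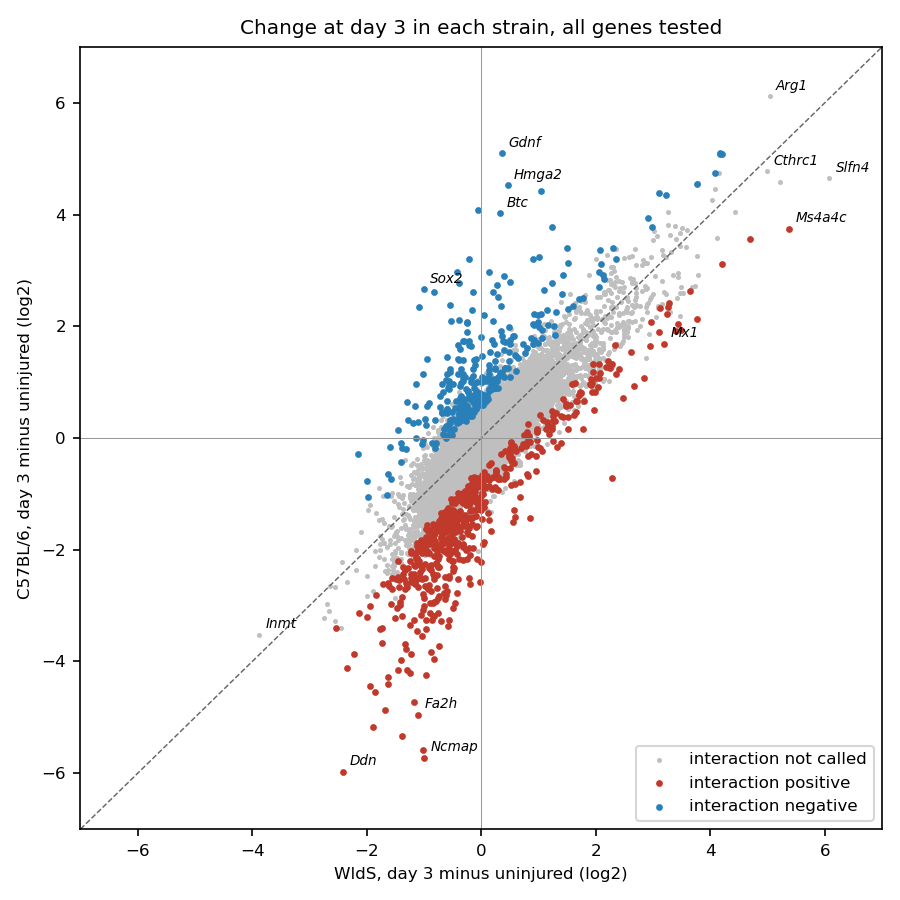
Change at day 3 in WldS (horizontal) and in C57BL/6 (vertical), both on the log2 scale, for the 14545 genes tested; red and blue points have a called positive or negative interaction, and the dashed line marks equal change. Ncmap, Fa2h and Ddn lie far below the dashed line, and Gdnf, Btc, Hmga2 and Sox2 far above it.

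Transcription factors of Schwann cell state were split, 6 of 17 higher and 5 lower, against 20.8% and 15.2% of all genes. Fewer were lower without WldS day 3 replicate 1. Egr3 rose by 1.84 on the probe set tested but stood at -0.27 on another, which was not tested. Id2, an inhibitor of differentiation, rose by 1.81, and Jun, the driver of the repair state, by 0.87. Sox10, the lineage factor, read 11.02 and 11.10 at day 3, against 12.06 and 12.25 in uninjured WldS nerve, a change of -1.10 ± 0.13 (adjusted p = 2.03e-05). Egr2, the master factor of myelination, changed by -0.66, a call lost without WldS uninjured replicate 2 (-0.51) or WldS day 3 replicate 1 (-0.45). Sox2, a factor of immature Schwann cells, read 6.27 and 6.29 at day 3, against 7.32 and 7.25 in uninjured WldS nerve, a change of -1.0 ± 0.13 (adjusted p = 2.6e-05), and Pou3f1, a factor of the promyelinating stage, changed by -0.94. In C57BL/6 these last genes rose, Sox2 by 2.66 and Pou3f1 by 1.41, and their interactions were -3.67 ± 0.18 (adjusted p = 3e-08) and -2.36 ± 0.26 (adjusted p = 5.82e-05). Atf3, an injury-induced factor, rose by 0.49 in WldS, a call lost without WldS day 3 replicate 1 (0.40), and by 1.99 in C57BL/6, an interaction of -1.50 ± 0.16 (adjusted p = 6.32e-05).

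Immature and repair Schwann cell genes did not move as one in WldS nerve, 5 of 17 higher and 6 lower, with a median of -0.09. Over all genes tested 20.8% were higher and 15.2% lower. Shh, the hedgehog ligand, read 11.65 and 12.01 at day 3, against 8.69 and 8.76 in uninjured WldS nerve, a rise of 3.10 ± 0.16 (adjusted p = 9.33e-09). Tnc, the matrix glycoprotein tenascin-C, read 8.75 and 9.09 at day 3, against 5.61 and 6.20 in uninjured WldS nerve, a rise of 3.02 ± 0.21 (adjusted p = 1.4e-07), and Gap43, a growth-associated protein, rose by 1.18. Gdnf, a trophic factor for motor and sensory neurons, read 5.56 and 5.74 at day 3, against 4.97 and 5.60 in uninjured WldS nerve, overlapping and not called (0.37, adjusted p = 0.0991). Without WldS uninjured replicate 2 it was called (0.68, adjusted p = 0.00184), and without WldS uninjured replicate 1 it was at 0.05. Ngfr, the p75 neurotrophin receptor, read 7.11 and 8.22 at day 3, against 8.42 and 8.55 in uninjured WldS nerve, a change of -0.82. Its call was lost without WldS day 3 replicate 1 (-0.27) or either uninjured WldS array (-0.89 and -0.76), and the change was -1.38 without WldS day 3 replicate 2. L1cam and Cdh2, adhesion molecules, changed by -1.13 and -0.91.

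Of the same list 11 of 17 genes rose in C57BL/6, with a median of 1.25, and 8 had a negative interaction, from 7 to 10 with one array left out. Gdnf read 10.15 and 10.06 in C57BL/6 at day 3, against 5.08 and 4.93 in uninjured C57BL/6, a fitted interaction of -4.73 ± 0.23 (adjusted p = 3.35e-08). Its uninjured means lay under the dim filter in both strains, so the size is not exact, as also for Ucn2 and Fosl1, which have a mean under it. Btc, the growth factor betacellulin, changed by 0.33 in WldS and 4.03 in C57BL/6, an interaction of -3.70 ± 0.29 (adjusted p = 2.57e-06). Ngfr had an interaction of -3.44 ± 0.38 (adjusted p = 6.32e-05) and Ucn2, a peptide of the urocortin family, of -2.78 ± 0.18 (adjusted p = 4.74e-07). Shh, which rose strongly in both strains, still had an interaction of -1.27 ± 0.23 (adjusted p = 0.0041). Jun (-0.11), Gap43 (-0.10) and Tnc (-0.69) had none that was called. At later days the WldS means stood at 8.78 (day 7) and 10.10 (day 14) for Sox2, 9.17 and 10.37 for Megf10, 9.61 and 10.49 for Ngfr, and 6.52 and 6.75 for Gdnf, against C57BL/6 day 3 means of 10.10, 10.32, 11.33 and 10.10. These levels at different days are given side by side without a test.

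**Figure D4:**
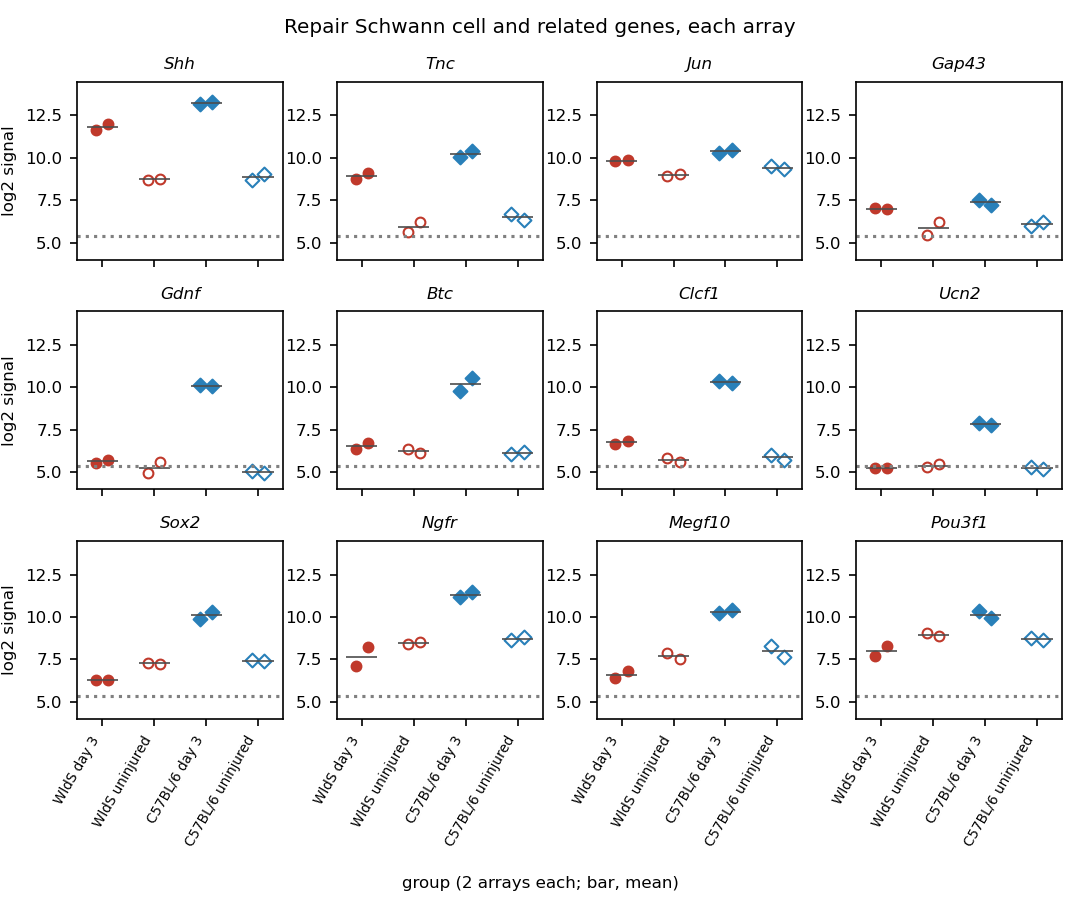
Log2 signal of each array for 12 repair Schwann cell and related genes in WldS day 3, WldS uninjured, C57BL/6 day 3 and C57BL/6 uninjured nerve, left to right in each panel; bars are group means and the dotted line is the dim filter. Shh, Tnc, Jun and Gap43 are high at day 3 in both strains, while for Gdnf, Btc, Ucn2, Sox2 and Ngfr the C57BL/6 day 3 points alone stand above the other groups.

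Of 21 neurotrophic and growth factors tested 5 rose and 2 fell (5 without WldS uninjured replicate 2), near the 20.8% and 15.2% of all genes. Igf1 rose by 1.32 and Tgfb1 by 1.22, both products of macrophages among other cells. Clcf1, a cytokine of the CNTF family, read 6.68 and 6.84 at day 3, against 5.84 and 5.59 in uninjured WldS nerve, a rise of 1.05 ± 0.16 (adjusted p = 0.000138), and 10.37 and 10.27 in C57BL/6 at day 3, against 6.04 and 5.75 in uninjured C57BL/6, an interaction of -3.38 ± 0.22 (adjusted p = 5.17e-07). Bdnf was at -0.16 and not called. Among immediate early genes 9 of 17 rose and 2 fell (1 without WldS uninjured replicate 2 or WldS day 3 replicate 1). Fos read 11.37 and 11.29 at day 3, against 9.17 and 9.25 in uninjured WldS nerve, a rise of 2.12 ± 0.11 (adjusted p = 1.12e-08), below that of C57BL/6 (2.92, interaction -0.80). Fosl1, another AP-1 member, was at 0.28 in WldS and at least 2.74 in C57BL/6, an interaction of -2.46 ± 0.34 (adjusted p = 0.000491).

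RNA of axonal genes, part of which may be carried in axons, was low in nerve. Of 8 members tested 3 were lower and 0 higher, against 15.2% and 20.8% of all genes, and 5 more lay below the dim filter. Nefl, the light neurofilament chain, read 6.01 and 5.92 at day 3, against 8.31 and 7.62 in uninjured WldS nerve, a change of -2.00 ± 0.20 (adjusted p = 3.25e-06), against -2.82 in C57BL/6 with no called interaction (0.82). Tubb3, a neuronal tubulin that other cells can express, was at 0.35 in WldS and 2.37 in C57BL/6, an interaction of -2.02 ± 0.25 (adjusted p = 0.000186). Of 14 genes of NAD metabolism and axon degeneration 1 rose and 2 fell (1 without WldS day 3 replicate 1 but 4 without WldS uninjured replicate 2). Over all genes tested 20.8% were higher and 15.2% lower. Bst1, an NAD-consuming surface enzyme of myeloid cells, was the one of the list that rose, at 8.49 and 8.16 at day 3, against 5.25 and 4.96 in uninjured WldS nerve. Sarm1 (0.01), Nmnat2 (-0.09), Nmnat3 (0.12) and Ube4b (0.02) were not called.

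In the connective tissue, collagen genes were higher in 12 of 20 and lower in 2. The higher count was 7 without WldS day 3 replicate 1, and the lower count 1 without WldS uninjured replicate 2 or WldS day 3 replicate 1 or WldS day 3 replicate 2. Col12a1, which decorates fibrils, read 9.19 and 9.39 at day 3, against 7.54 and 8.06 in uninjured WldS nerve, a rise of 1.49 ± 0.23 (adjusted p = 0.000174), Col6a3 rose by 1.47, and Col15a1, a basement membrane collagen, changed by -0.95. Wound matrix and matricellular genes rose in 12 of 18 and fell in 0. Postn, periostin, rose by 1.92 and Fn1, fibronectin, by 1.42. Among metalloproteinases and their inhibitors 9 of 18 rose and 1 fell (0 without WldS day 3 replicate 1 or WldS day 3 replicate 2 but 2 without WldS uninjured replicate 2). Timp1, an inhibitor of metalloproteinases, read 11.82 and 11.87 at day 3, against 7.68 and 7.67 in uninjured WldS nerve, a rise of 4.17 ± 0.15 (adjusted p = 4.02e-10), and Mmp12, the macrophage elastase, rose by at least 2.88. Laminins and integrins were split, 6 higher and 6 lower of 19, against 20.8% and 15.2% of all genes. Fewer were lower without WldS uninjured replicate 2, WldS day 3 replicate 1 or WldS day 3 replicate 2. Itgb4, a laminin receptor chain of Schwann and perineurial cells, was at -0.40 in WldS (-0.92 and called without WldS uninjured replicate 1, but 0.11 without WldS uninjured replicate 2) and -2.52 in C57BL/6, an interaction of 2.12 ± 0.37 (adjusted p = 0.00337).

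Genes of resting nerve fibroblasts and perineurium were lower in 7 of 21 and higher in 3, against 15.2% and 20.8% of all genes. Fewer were higher without WldS day 3 replicate 1. After Inmt, Pi16, a marker of adventitial fibroblasts, read 9.79 and 9.02 at day 3, against 10.85 and 10.95 in uninjured WldS nerve, a change of -1.49 ± 0.20 (adjusted p = 6.16e-05). Endothelial and barrier genes were higher in 11 of 19 and lower in 3. Selp and Vcam1, adhesion molecules for leukocytes, rose by 1.49 and 1.25, and Vcam1 rose more than in C57BL/6, with an interaction of 0.92 ± 0.18 (adjusted p = 0.00761). Mfsd2a, a lipid transporter of barrier endothelium, read 7.79 and 7.89 at day 3, against 10.12 and 10.02 in uninjured WldS nerve, a change of -2.23 ± 0.17 (adjusted p = 2.55e-07), with -3.86 in C57BL/6 and an interaction of 1.63 ± 0.24 (adjusted p = 0.000874). Abcb1a, the drug efflux pump, changed by -0.96 and Slc2a1, a glucose transporter of perineurium and barrier vessels, by -0.82. Pericyte and smooth muscle genes rose in 5 of 12, against 20.8% of all genes. Fewer rose without WldS uninjured replicate 1, WldS day 3 replicate 1 or WldS day 3 replicate 2. Pdgfrb, the pericyte growth factor receptor, changed by -0.89. Of 11 adipocyte genes 3 fell and 0 rose, against 15.2% and 20.8% of all genes. Fewer fell without WldS day 3 replicate 1 or WldS day 3 replicate 2 and more without WldS uninjured replicate 1. The 5 lymphatic markers tested had 1 called, near the 20.8% of all genes called higher. It was Pdpn (0.53), which fibroblasts express too and which was not called without WldS day 3 replicate 2 (0.39).

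Of 18 glycolysis and lactate transport genes 9 rose and 2 fell. Ldha, lactate dehydrogenase A, read 12.06 and 12.07 at day 3, against 10.36 and 11.10 in uninjured WldS nerve, a rise of 1.34 ± 0.26 (adjusted p = 0.001), Hk2, a hexokinase, rose by 1.20, and Aldoc, an aldolase of neural tissue, changed by -1.78. Oxidative phosphorylation genes were called about as often as all genes (36.0%), with 3 higher, 5 lower and 19 not called of 27. The higher count was 1 without WldS uninjured replicate 1 or WldS day 3 replicate 2 but 7 without WldS uninjured replicate 2, and the lower count 3 without WldS day 3 replicate 1. The largest falls there were of Ppargc1a, a coactivator of mitochondrial biogenesis (-1.63), and Cox7a1, a muscle and heart isoform of a cytochrome oxidase subunit (-1.58). Both are abundant in muscle, whose genes were also lower at day 3, as given above. Without WldS uninjured replicate 2, which had the higher muscle average, Ppargc1a stood at -1.46 and Cox7a1 at -1.69. Without WldS uninjured replicate 1 they stood at -1.79 and -1.47. The part of muscle tissue in these falls was not tested. Heme and iron genes rose in 10 of 15 (5 without WldS day 3 replicate 1 but 6 without WldS uninjured replicate 1), among them Slc11a1, a metal transporter of phagosomes (2.13), and Hmox1, which splits heme (1.77). Of 25 proteasome subunits 10 rose and 0 fell, the higher count being 5 without WldS day 3 replicate 1 but 6 without WldS uninjured replicate 1 or WldS day 3 replicate 2, and 2 with the 3'/5' index as a covariate.

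Of 15 ion channel genes 8 were lower, from 6 to 7 with one array left out, and 1 higher (2 without WldS uninjured replicate 1). Kcnk1, a potassium leak channel, read 9.09 and 9.25 at day 3, against 10.31 and 10.95 in uninjured WldS nerve, a change of -1.46 ± 0.21 (adjusted p = 8.78e-05). Kcna1 and Kcna2, channels of the juxtaparanode, changed by -1.04 and -1.01, and Scn7a, a sodium channel of glia, by -0.77. The C57BL/6 changes were -4.15, -2.06, -3.07 and -2.28 in the same order, and the interactions of Kcnk1 (2.69 ± 0.30 (adjusted p = 6.32e-05)), Kcna2 (2.07 ± 0.20 (adjusted p = 1.71e-05)) and Scn7a (1.5 ± 0.20 (adjusted p = 0.000309)) were called with any array left out. P2rx4, an ATP-gated channel of macrophages, rose by 1.12 on the probe set tested, while others, not tested, stood at 2.47 and 0.0.

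Across all genes most of the WldS change did not differ detectably from the C57BL/6 change. Of the 3031 genes higher in WldS 127 had a positive interaction (4.19%), 70 a negative one (2.31%) and 2834 (93.5%) none that was called. These shares are near the 4.02% positive and 2.15% negative of all genes tested. Of the 2205 lower genes 291 had a positive interaction (13.2%), 85 a negative one (3.85%) and 1829 (82.9%) none. The WldS change and the interaction use the same WldS arrays, so these shares are not independent of the WldS calls. A further 166 positive and 157 negative interactions fell on genes not called in WldS, and 54 genes were called in opposite directions in the strains. An interaction that misses the threshold does not show equal change, and the count was not stable, from 460 to 2058 with one array left out, the highest without WldS uninjured replicate 2.

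**Figure D5:**
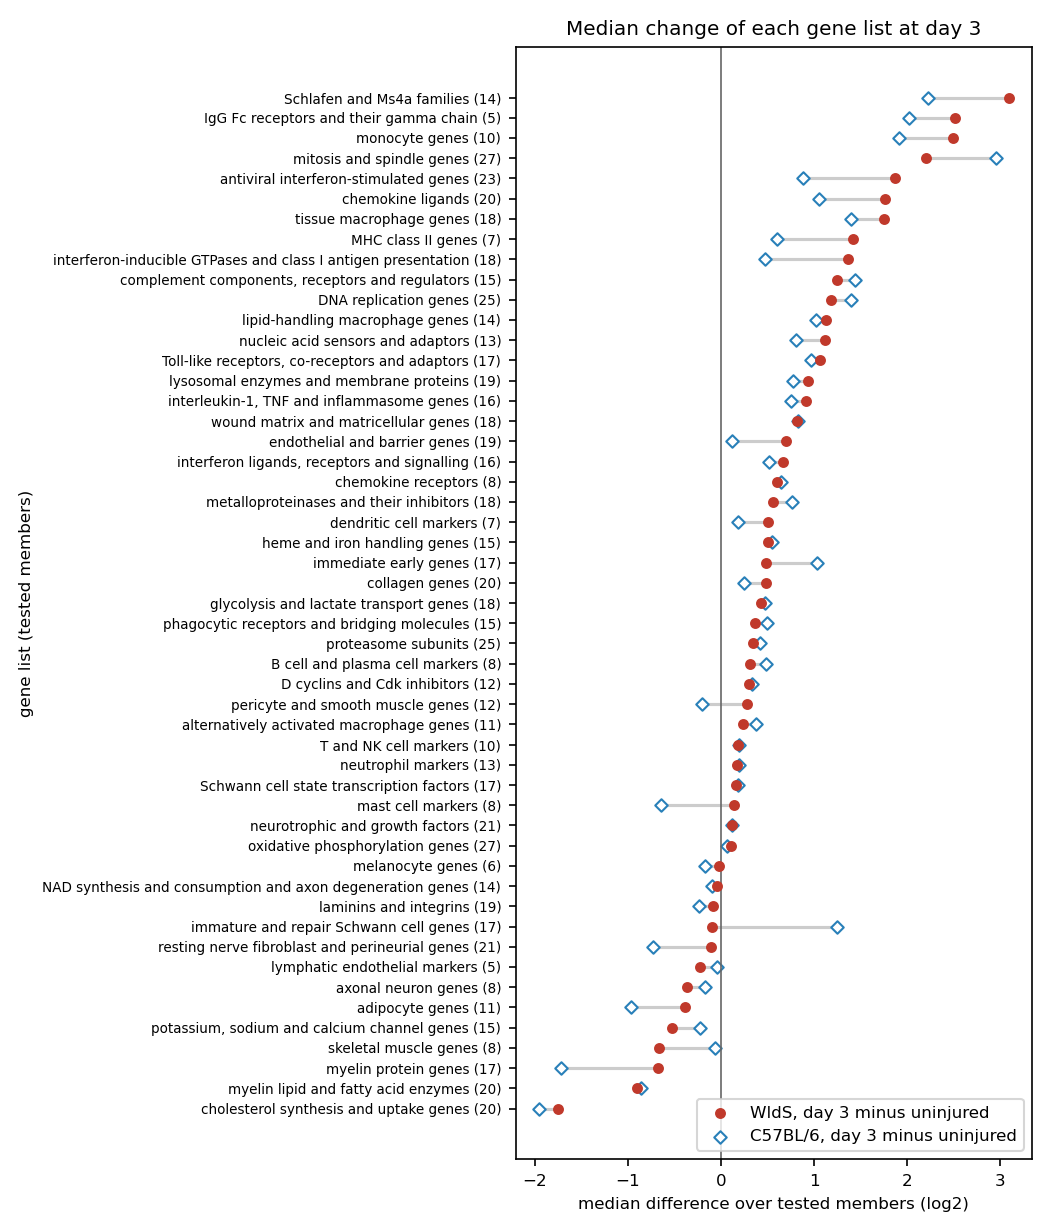
Median difference between day 3 and uninjured nerve over the tested members of each gene list with at least 5 of them, on the log2 scale; red points are WldS, open diamonds C57BL/6, and the number of members stands in brackets. The Schlafen and Ms4a families have the highest WldS median (3.09) and cholesterol genes the lowest (-1.75), and the repair Schwann cell list is at -0.09 in WldS and 1.25 in C57BL/6.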

How the data were processed

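RNA of pooled sciatic nerve was hybridized to 16 Affymetrix Mouse Genome 430 2.0 arrays, 8 groups of 2. The authors deposited log2 signals per probe set, and array medians of 6.42 to 6.49 with near-equal quantiles show that these had been normalized between arrays. Per the submitters' processing notes, GCOS 1.4, RMA, limma and Partek were used, and their roles are not given. Arrays carry no read depth. Of 45101 probe sets 64 controls were left out, 34945 had 1 gene symbol, 932 several and 9160 none listed in the platform table. The brightest probe set of a gene by its mean over the 16 arrays stood for the gene, giving 18193 genes, and 14545 at or above the 30th percentile of probe set means (log2 5.37) were tested. Where a gene has several probe sets above that level, these could differ in size. For example, another one stood at 2.47 for P2rx4, -0.89 for Lyve1, -1.05 for H2-DMa and -1.57 for Cdkn1b in WldS. The others stood at -1.35 and -1.42 for Hsd17b7, 0.93 and 0.83 for Jak1, 0.59 and 0.54 for Ddx58, and 0.51, 2.02 and 3.41 for Ccr2. At least 1 other probe set above that level changed by 0.25 or less in size for P2rx4, Tlr7, Sox10, Top2a, Cenpf, Ngfr, Cadm1, Cdk6, Clcf1, Pdgfrb, Slc2a1, Mme and Fam178b. A member of a gene list below that level was not tested, and a listed name without a match is not analysed here. A limma 3.58.1 fit (R 4.3.3) gave a mean to each of the 8 groups, and differences were tested two-sided by its moderated statistic with Benjamini-Hochberg adjustment over all genes tested; the fit was checked on simulated data. Lists were described by counts and medians only. The genes and lists were chosen with earlier results of these data known. The text names genes from the 10 largest rises and 10 largest falls among called genes whose day 3 and uninjured arrays did not overlap. Others come from the 10 largest interactions in each direction among called genes, from the 5 largest rises and falls of each list, and from lists with 20 or fewer members. Clone and predicted gene names were passed over in the rankings over all genes. Ifit1, Ifit2, Ifit3, Rsad2, Samd9l, Mbp, Pmp22, Hmgcs1 and Ttk were picked after their values were seen. The processing alternatives were likewise listed only after the data were seen. Promoter windows came from RefSeq on GRCm38.p6.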

Additional observations from a re-analysis of the deposited data

Results flagged for a closer look

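The change at day 3 differed between WldS and C57BL/6 nerve, by the interaction term of the limma fit, in 896 of 14545 genes at an adjusted p below 0.05. The 10 largest positive interactions, where the WldS value ended higher relative to its uninjured nerve, were those of Ncmap (4.72), Fam107a (4.57), Smco3 (3.95), Fa2h (3.85), Ddn (3.56), Pcp4 (3.54), Fam178b (3.29), Ugt8a (3.27), Dusp15 (3.18) and Mme (3.13). All 10 were called lower in both strains, by less in WldS. For Smco3 the changes were -1.39 in WldS and -5.34 in C57BL/6, and for Dusp15, a dual-specificity phosphatase, -1.68 and -4.86.

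The 10 largest negative interactions were those of Gdnf (-4.73), Syt4 (-4.16), Hmga2 (-4.07), Btc (-3.70), Sox2 (-3.67), Ngfr (-3.44), Megf10 (-3.43), Cgref1 (-3.41), Fgf5 (-3.41) and Clcf1 (-3.38). The size for Gdnf is not exact, since its uninjured means lay under the dim filter in both strains. Each of these genes was called higher in C57BL/6. In WldS nerve Clcf1 and Hmga2 were called higher, Hmga2 by 0.46 and not without WldS day 3 replicate 2 (0.35), Sox2, Megf10 and Ngfr were called lower, and Gdnf, Syt4, Btc, Cgref1 and Fgf5 were not called. Syt4, a synaptotagmin, changed by -0.06 in WldS and 4.09 in C57BL/6.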

How the results depend on the processing

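No alternative was on record before the values were seen, so all of those given here count as chosen after seeing the data. They were a replicate block, no dim filter or a filter at the 50th percentile, the mean of all probe sets of a gene, median centring, quantile normalization, cyclic loess, only the groups compared, a variance trend, the 3'/5' index as a covariate, and each array left out in turn. The 5236 genes called at WldS day 3 became 3465 with the 3'/5' index as a covariate, where 1839 were higher in place of 3031. With only the groups compared the total became 3625, and the 2205 lower genes became 1358. With one array left out the total ran from 3316 to 5244, the higher genes from 2109 to 3192 and the lower from 1207 to 2052. The 896 interactions became 548 with only the groups compared, 366 positive and 182 negative. With one array left out they ran from 460 to 2058, the positive from 297 to 1391 and the negative from 163 to 667. Counts for C57BL/6 stayed within 1.5 times under each alternative. The main fit did not pair arrays by replicate number. Deviations of same-numbered arrays correlated above 0.1 in 5 of 28 pairs of groups (from -0.58 to 0.19). The lowest was that of uninjured WldS with WldS day 14. C57BL/6 day 3 stood at -0.418 with WldS day 14 and -0.407 with WldS day 7. A negative value means that arrays of unlike number deviated alike. Whether same-numbered arrays shared a dissection or a hybridization was not tested. With a replicate block 5001 genes were called at WldS day 3 and 771 interactions. Scaling moved the median difference of all genes from -0.02 to values between -0.042 and 0.014. With 2 pools a group, the number of arrays limits the precision.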
